A study of Mus musculus with 24 samples.

Results

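Inguinal white adipose tissue (iWAT), the subcutaneous fat depot of the groin, was compared between wild-type (WT) mice on an omega-3 enriched diet (n3) and WT mice on a diet enriched in saturated fat (SFA). All 8 libraries labelled WT n3 or WT SFA were used, 4 from each diet, of 24 libraries in the series. The mice were male and 18 to 22 weeks old. Both diets took 60% of their calories from fat, so the diets differed in the kind of fat and not in its share of calories. The other 16 libraries came from WT mice on an omega-6 enriched diet (n6) and from mice labelled AdL3KO, called KO here, on n3, n6 and SFA, with 4 libraries each. The series title names LPCAT3, an enzyme that attaches polyunsaturated fatty acids to lysophospholipids, as the gene deleted in KO. The sources used here do not give the promoter driving that deletion, the strain, or whether each library came from a separate animal, so p-values measure only the spread between these libraries. WT n3 libraries held 49.1 to 62.1 M estimated counts and WT SFA libraries 48.5 to 55.4 M. Of 35727 genes in the count table, 15259 had enough counts to be tested.

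White adipocytes take up fatty acids from the blood, store them as triglyceride and make some themselves from glucose. Long polyunsaturated fatty acids, omega-3 and omega-6 alike, are known to lower the genes of fatty acid synthesis and desaturation in liver and fat, partly by limiting the processing of the transcription factor SREBP-1. Saturated fatty acids are the substrates of the stearoyl-CoA desaturases, which insert a double bond to give the monounsaturated fatty acids of stored fat. Omega-3 fatty acids are also ligands of the receptor encoded by Ffar4 and of PPAR transcription factors, and they are easily oxidised.

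The libraries carried the markers of adipose tissue as a whole. Levels are given as CPM, a count scaled by the total of its library after that total was adjusted by TMM scaling. Adipoq, the adipokine adiponectin, lay between 1835 and 2059 CPM in WT n3 libraries and between 1879 and 2165 CPM in WT SFA libraries. Over all 12 adipocyte markers the sums were 25720 to 29080 CPM in WT n3 libraries and 28140 to 30140 CPM in WT SFA libraries. All 12 had a log2 fold change below 0 (median -0.113, against 0.003 over all tested genes), from -0.04 for Adipoq to -0.72 for Cfd. None was called, and 3 did not overlap between the diets (25%, against 9.01% of all tested genes). The part of adipocyte content in the genes called lower was not tested. Macrophage markers (15 genes) summed to 1598 to 1925 CPM in WT n3 libraries and to 1527 to 1816 CPM in WT SFA libraries, so the libraries were not of adipocytes alone, although the series title speaks of mature adipocytes. In such bulk samples, fewer cells of a type and less RNA per cell cannot be told apart. The skeletal muscle, mammary gland and mesothelium lists were each below 60 CPM in sum in all 8 libraries. One library stood apart: B cell markers (10 genes) summed to 49.87 CPM in WT SFA replicate 3, against 4.879 to 9.347 CPM in the other WT SFA libraries, and to 6.927 to 7.921 CPM in WT n3 libraries. Without the libraries that were high in B cell or muscle markers, among them WT SFA replicate 3, 23 genes were called between the diets, and they held 13 of the 22 called with all libraries. The other 9 lost their call, with adjusted p-values of up to 0.111.

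WT fat on n3 differed from WT fat on SFA in 22 of 15259 genes (0.144%) by edgeR's quasi-likelihood test at a Benjamini-Hochberg adjusted p below 0.05. Of these, 13 genes (0.0852%) were higher on n3 and 9 (0.059%) were lower. The differences were small: 3 of the 22 reached 1.5-fold and 1 reached 2-fold, and the median absolute log2 fold change over all tested genes was 0.079. In the same fit, WT n6 against WT SFA gave 3776 calls (24.7%), 11.6% of genes higher and 13.1% lower. WT n3 against WT n6 gave 2813 calls (18.4%), 9.82% of genes higher and 8.61% lower. Both comparisons share libraries with that of n3 and SFA. An unadjusted p below 0.05 was found for 2238 genes (14.7%), 1167 higher (7.65%) and 1071 lower (7.02%), and the values of the groups did not overlap for 1375 genes (9.01%). Without any difference, a calibrated test gives such a p in a share of about 0.05 of genes. At an adjusted p below 0.1, 209 genes passed. The 22 calls are thus the genes past 1 threshold and need not be all that differ. The count of calls rested on single libraries. It was 126, 1, 34 and 7 without WT SFA replicates 1, 2, 3 and 4, and 13, 95, 6 and 8 without WT n3 replicates 1, 2, 3 and 4, while DESeq2 called 316 genes.

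**Figure D1:**
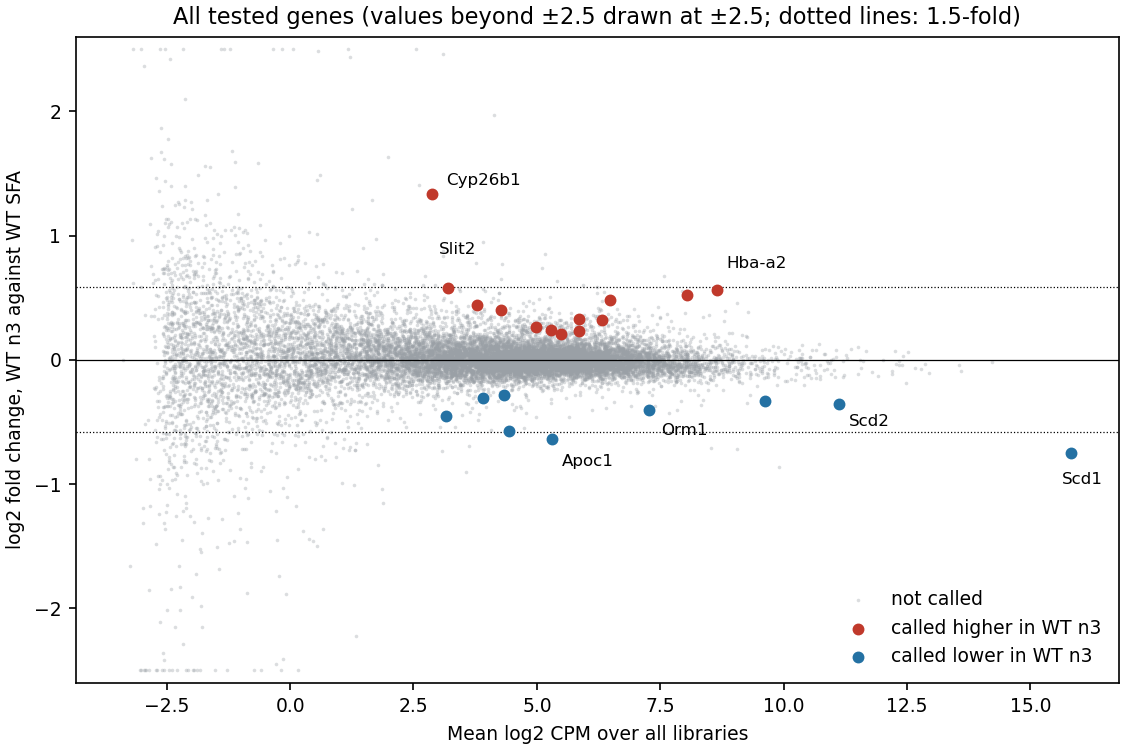
Each point is 1 of 15259 tested genes, with the mean log2 CPM over all libraries on the x axis and the log2 fold change of WT n3 against WT SFA on the y axis. The 13 genes called higher (red) and the 9 called lower (blue) lie among the medium and high levels, and most other points above a mean log2 CPM of 2 fall between the dotted lines at 1.5-fold.

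Much of the transcriptome could be bounded, which a missed test alone does not do. For 12274 genes (80.4%) the whole 95% interval of the fold change of n3 against SFA lay within 1.5-fold in either direction, and for 13950 genes (91.4%) it lay within 2-fold. The bound depended on expression. Genes with a mean log2 CPM of 4 to 6 were bounded within 1.5-fold in 98.1% of cases, those from 0 to 2 in 66% and those below 0 in 8.48%. The other 1309 genes were not bounded within 2-fold; 1 of them, Cyp26b1, was called, and in the rest a change of that size was neither called nor bounded. Over all tested genes, 2 libraries of different diets were about as far apart as 2 of the same diet. The median root mean square difference of log2 CPM was 0.503 between the diets, 0.467 within WT n3 and 0.506 within WT SFA. Over genes with a mean log2 CPM of 4 or more it was 0.184 between the diets, 0.138 within WT n3 and 0.165 within WT SFA.

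The clearest difference was in Scd1, a stearoyl-CoA desaturase. Scd1 (chromosome 19, 44394455 to 44407879, minus strand, mm10), the main isoform of fat, had 34050, 31410, 29850 and 30330 CPM in WT n3 libraries, against 51890, 54560, 50190 and 54370 CPM in WT SFA libraries. Every WT n3 library lay below every WT SFA library. Scd1 fell by 0.75 on the log2 scale (SE 0.08, adjusted p = 2.5e-05), a decrease of 40.5%. It was one of the most abundant transcripts, taking 3.15 to 3.59% of all counts in WT n3 libraries and 5.13 to 5.52% in WT SFA libraries. Scd2 (chromosome 19, 44293674 to 44306864, plus strand), its neighbour on the chromosome with the same reaction, had 1352, 1334, 1379 and 1284 CPM in WT n3 libraries, against 1495, 1723, 1924 and 1697 CPM in WT SFA libraries. The groups again did not overlap, and Scd2 fell by 0.35 (SE 0.07, adjusted p = 0.0201). Its call was less firm than that of Scd1: it was kept in 9 of 18 alternative settings and lost, at an adjusted p of 0.0955, without the libraries rich in B cell or muscle markers. Per transcript length, Scd1 averaged 11741 ± 769 TPM in WT n3 and 19035 ± 659 TPM in WT SFA, and Scd2 averaged 440 ± 17.2 TPM in WT n3 and 542 ± 51.7 TPM in WT SFA (SD, n = 4 each). The counting of the 2 related genes by Salmon could share reads between them, and how far it did was not tested.

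Of the de novo fatty acid synthesis list (18 genes tested), Scd1 and Scd2 were the 2 called lower, and no member was called higher. Over all tested genes, 0.059% were called lower and 0.0852% higher. The list's median log2 fold change was -0.062, against 0.003 over all tested genes. Of its 18 members, 16 were bounded within 1.5-fold (88.9%, against 80.4% of all tested genes). Fasn, the fatty acid synthase, had 4044, 4233, 4060 and 3668 CPM in WT n3 libraries, against 3571, 4052, 4769 and 4384 CPM in WT SFA libraries. The diets overlapped, with a log2 fold change of -0.07 and a 95% interval of -0.22 to 0.08. Srebf1, which encodes SREBP-1, gave -0.05 (interval -0.20 to 0.09), and Me1, the malic enzyme that supplies reducing power to synthesis, gave 0.01 (interval -0.14 to 0.15). Elovl6, which elongates palmitate to stearate, had 49.11, 53, 51.03 and 49.72 CPM in WT n3 libraries, against 55.06, 67.82, 66.53 and 59.93 CPM in WT SFA libraries. Its groups did not overlap, but its log2 fold change of -0.30 (SE 0.07) missed the threshold at an adjusted p of 0.0672.

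None of the 11 tested genes of polyunsaturated fatty acid desaturation and elongation was called. Fads1, the delta-5 desaturase that finishes arachidonic and eicosapentaenoic acid, had 39.7, 39.24, 36.53 and 39 CPM in WT n3 libraries, against 56.49, 49.12, 46.34 and 44.64 CPM in WT SFA libraries. Every WT n3 value lay below every WT SFA value, with a log2 fold change of -0.35 (SE 0.08, adjusted p = 0.0682). Fads2, the delta-6 desaturase that works earlier in the same route, gave 0.09 (interval -0.10 to 0.28), and the elongase Elovl5 gave -0.01 (interval -0.10 to 0.09). Lpcat3 itself, the gene deleted in KO, had 113.7, 113.3, 119 and 111.8 CPM in WT n3 libraries, against 97.79, 117.5, 129 and 122.8 CPM in WT SFA libraries. Its groups overlapped, and its log2 fold change of -0.03 had an interval of -0.15 to 0.09, within 1.5-fold.

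**Figure D2:**
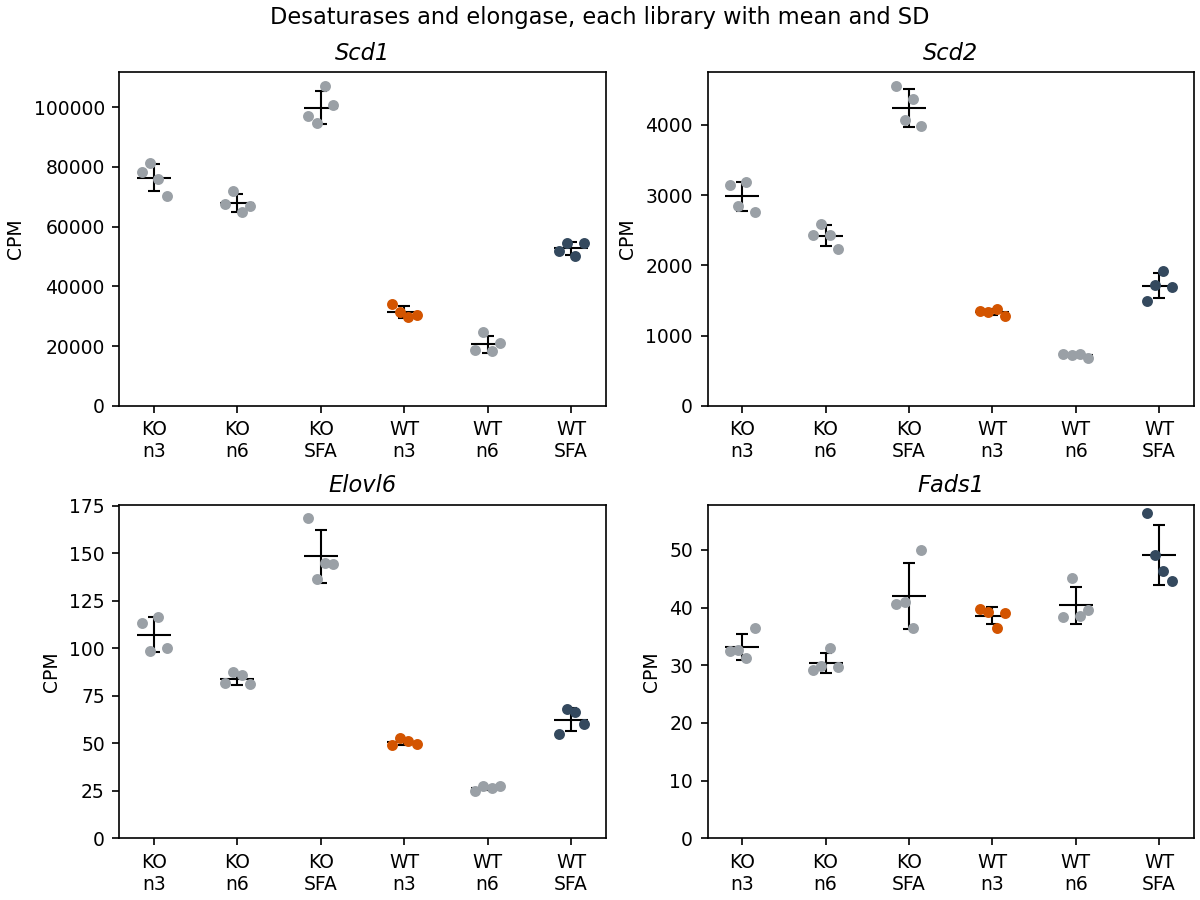
Points are the CPM of single libraries of Scd1, Scd2, Elovl6 and Fads1 in the 6 groups, with a bar for the mean and whiskers for the SD (n = 4); each y axis starts at 0. WT n3 (orange) lies below WT SFA (dark) without overlap for all 4 genes, and Scd1, Scd2 and Elovl6 are lower still in WT n6.

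The omega-6 diet is set against the same WT SFA libraries, so its contrast is not independent of that of n3, and the levels are given side by side. Scd1 averaged 31410 ± 1880 CPM in WT n3, 20630 ± 2920 CPM in WT n6 and 52750 ± 2100 CPM in WT SFA (SD, n = 4 each). The difference of WT n3 from WT n6 was itself called, at a log2 fold change of 0.61 (SE 0.08, adjusted p = 8.31e-06). Elovl6 averaged 50.71 ± 1.72 CPM in WT n3, 26.45 ± 1.21 CPM in WT n6 and 62.33 ± 5.95 CPM in WT SFA. Here too WT n3 exceeded WT n6, by 0.94 (SE 0.07, adjusted p = 5.72e-09). Fads1 averaged 38.62 ± 1.42 CPM in WT n3, 40.43 ± 3.19 CPM in WT n6 and 49.15 ± 5.23 CPM in WT SFA, and n3 against n6 gave -0.07 (SE 0.08, adjusted p = 0.622).

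Of the other genes called lower on n3, 4 encode secreted proteins. Apoc1 (chromosome 7, 19689481 to 19692660, minus strand), an apolipoprotein that adipose tissue and macrophages make, had 30.65, 32.8, 28.57 and 26.91 CPM in WT n3 libraries, against 44.95, 48.03, 41.28 and 50.58 CPM in WT SFA libraries. It fell by 0.64 (SE 0.10, adjusted p = 0.012), with no overlap. Wfdc21, a WAP-domain protein, had 21.83, 25.27, 25.03 and 20.62 CPM in WT n3 libraries, against 37.16, 35.58, 30.55 and 34.63 CPM in WT SFA libraries, and fell by 0.57 (SE 0.09, adjusted p = 0.012). Orm1, the acute-phase protein alpha-1-acid glycoprotein, had 135.6, 148.1, 133.2 and 131.8 CPM in WT n3 libraries, against 175.3, 179.3, 173.8 and 197 CPM in WT SFA libraries. It fell by 0.40 (SE 0.08, adjusted p = 0.0248) and was the 1 called member of 26 tested adipokines and secreted factors, where 0.144% of all tested genes were called. Pm20d1, a secreted enzyme that joins fatty acids to amino acids, fell by 0.45 (SE 0.08, adjusted p = 0.0201), with 6.769 to 8.175 CPM in WT n3 libraries and 8.981 to 10.9 CPM in WT SFA libraries.

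The remaining genes called lower were enzymes. Cdo1, the cysteine dioxygenase that starts taurine synthesis, averaged 625.2 ± 29.6 CPM in WT n3 and 787 ± 55.5 CPM in WT SFA (SD, n = 4 each), a log2 fold change of -0.33 (SE 0.06, adjusted p = 0.0187). Thnsl2, a threonine synthase-like protein, averaged 13.21 ± 0.689 CPM in WT n3 and 16.38 ± 0.445 CPM in WT SFA (adjusted p = 0.0165). Pold4, a small subunit of DNA polymerase delta, averaged 20.33 ± 1.16 CPM in WT n3 and 24.73 ± 1.07 CPM in WT SFA (adjusted p = 0.0398). Their falls of 20.6%, 19.4% and 17.8% were small, and none of the 3 overlapped between the diets.

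**Figure D3:**
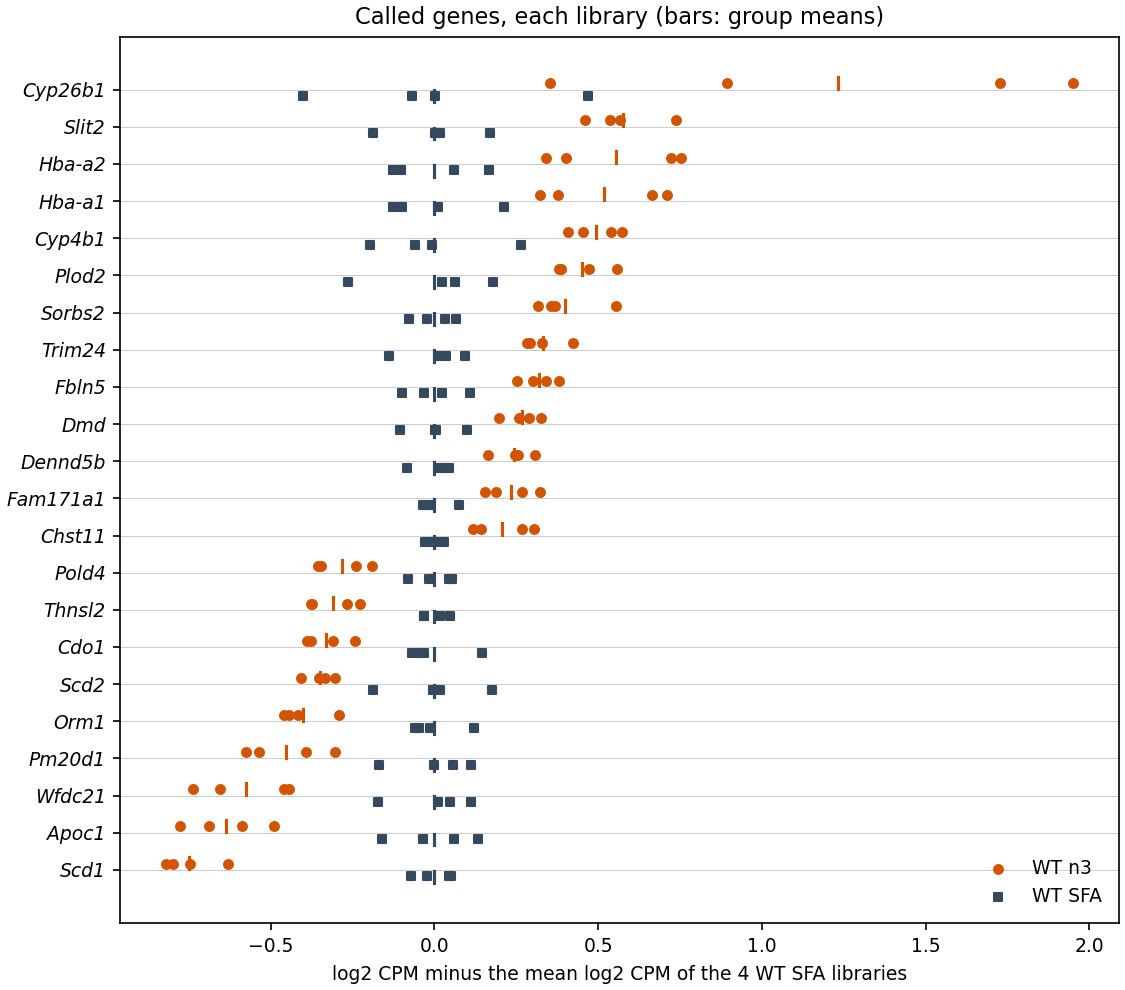
The 22 called genes, with each library's log2 CPM minus the mean of the 4 WT SFA libraries on the x axis; WT n3 libraries are orange circles, WT SFA libraries dark squares, and the bars are group means. The groups separate in 21 genes and overlap in Cyp26b1, whose WT n3 libraries spread over 5.205 to 15.75 CPM.

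Of the 13 genes called higher on n3, the 2 alpha-globin copies belong together. Hba-a2 had 450.3, 562.5, 574.5 and 431.4 CPM in WT n3 libraries, against 355.2, 317.4, 312.1 and 382.7 CPM in WT SFA libraries. Hba-a1 had 294.3, 370.9, 358.9 and 283.6 CPM in WT n3 libraries, against 228.5, 207.6, 211.4 and 262.8 CPM in WT SFA libraries. WT n3 replicates 2 and 3 were the highest for both. Hba-a2 rose by 0.56 (SE 0.10, adjusted p = 0.0165) and Hba-a1 by 0.52 (SE 0.10, adjusted p = 0.0383). The copies are nearly identical, with 428 of 429 coding bases shared, so reads of the coding part can hardly be assigned to 1 of them. The 2 calls are therefore not taken as separate results. The untranslated parts were not compared, and how far Salmon shared reads between the copies was not tested. The windows of 120 bases before each start, from RefSeq on GRCm38.p6, are shown to make that duplication visible; they lie at chr11:32283552-32283671 (Hba-a1) and chr11:32296372-32296491 (Hba-a2), both on the plus strand, and share an unbroken run of 117 bases.
Hba-a1: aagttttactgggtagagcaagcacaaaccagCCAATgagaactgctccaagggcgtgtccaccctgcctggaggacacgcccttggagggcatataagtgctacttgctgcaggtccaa
Hba-a2: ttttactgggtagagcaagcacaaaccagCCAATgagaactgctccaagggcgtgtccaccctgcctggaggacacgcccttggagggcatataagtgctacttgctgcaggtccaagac
Capitals mark the motif CCAAT, searched on both strands and found 88 bases before the start of Hba-a1 and 91 before that of Hba-a2. It occurs on either strand in 21.3% of 32851 windows of the same length.

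All 6 genes of the red blood cell list were higher on n3 at an unadjusted p below 0.05, 2 of them called. Over all tested genes, 7.65% were higher at that p and 0.0852% were called higher. The list summed to 1362 to 1796 CPM in WT n3 libraries and to 1016 to 1284 CPM in WT SFA libraries, without overlap. Hbb-bs, a beta-globin, gave a log2 fold change of 0.46 (adjusted p = 0.0682), Alas2, the first enzyme of haem synthesis in red cells, gave 0.54 (adjusted p = 0.0896), and Slc4a1, the anion exchanger of the red cell membrane, gave 0.94 (adjusted p = 0.217). No marker of blood vessels passed the test. Of 12 tested endothelium and pericyte genes, 8 were higher at an unadjusted p below 0.05, against 7.65% of all tested genes, and the list summed to 1645 to 2027 CPM in WT n3 libraries and to 1448 to 1781 CPM in WT SFA libraries. Pecam1, an adhesion molecule of endothelium, had 296.5, 226.6, 305.1 and 256.4 CPM in WT n3 libraries, against 234.9, 196.7, 210 and 191.6 CPM in WT SFA libraries (log2 fold change 0.38, adjusted p = 0.119). The part of blood or vessel content in the other genes called higher was not tested.

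Cyp26b1, which degrades retinoic acid, had the largest fold among the called genes and the least even values. It had 5.205, 7.566, 13.49 and 15.75 CPM in WT n3 libraries, against 5.636, 4.081, 3.081 and 3.88 CPM in WT SFA libraries. WT n3 replicate 1 lay below the highest WT SFA library. The log2 fold change was 1.33 (SE 0.27, adjusted p = 0.0453), and the call was kept in 4 of 18 alternative settings. Slit2, a secreted ligand of Robo receptors, had 10.79, 8.9, 9.392 and 9.591 CPM in WT n3 libraries, against 5.689, 6.545, 6.479 and 7.285 CPM in WT SFA libraries, and rose by 0.57 (SE 0.11, adjusted p = 0.0322).

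Of the remaining genes called higher, Plod2, Fbln5 and Chst11 act on the matrix, and Sorbs2 and Dmd on the cytoskeleton. Plod2, which hydroxylates collagen lysines for cross-linking, averaged 19.18 ± 1.11 CPM in WT n3 and 14.12 ± 1.76 CPM in WT SFA and rose by 0.44 (SE 0.07, adjusted p = 0.012). Fbln5, an organiser of elastic fibres, averaged 99.07 ± 3.79 CPM in WT n3 and 79.5 ± 4.84 CPM in WT SFA and rose by 0.32 (SE 0.06, adjusted p = 0.0153). Sorbs2, an adaptor of the actin cytoskeleton, had 25.46, 29.21, 24.77 and 25.69 CPM in WT n3 libraries, against 20.8, 18.86, 20.35 and 19.58 CPM in WT SFA libraries, and rose by 0.40 (SE 0.07, adjusted p = 0.012). Dmd (dystrophin) rose by 0.27 and Chst11, a sulfotransferase of chondroitin, by 0.21, with adjusted p-values of 0.012 and 0.0221. These genes are not a list chosen in advance, and the collagens and matrix list (28 tested) had no call, with a median of -0.009. Its abundant members Sparc and Col3a1 gave -0.04 (interval -0.13 to 0.05) and -0.13 (interval -0.42 to 0.16).

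The last genes called higher were Cyp4b1, Trim24, Dennd5b and Fam171a1. Cyp4b1, a cytochrome P450, had 103.5, 92.2, 101.1 and 95.23 CPM in WT n3 libraries, against 83.47, 60.71, 69.12 and 66.76 CPM in WT SFA libraries, and rose by 0.49 (SE 0.08, adjusted p = 0.0157). Trim24, a co-regulator of nuclear receptors, averaged 64.51 ± 2.92 CPM in WT n3 and 51.31 ± 3.44 CPM in WT SFA and rose by 0.33 (SE 0.05, adjusted p = 0.012). Dennd5b and Fam171a1 rose by 0.24 and 0.23, with adjusted p-values of 0.0153 and 0.0383. Across 18 alternative settings the 22 genes differed in how often they were called. Scd1 was called in all 18, Apoc1 in 17, Trim24 and Sorbs2 in 16 and Wfdc21 in 15. Scd2, Hba-a1 and Cyp4b1 were called in 9, Pm20d1 in 8, Slit2, Fam171a1 and Pold4 in 7 and Cyp26b1 in 4, and the other 9 genes in 10 to 14.

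Most pathway lists held no called gene. Of 42 gene lists, 39 had none. Of 601 pathway genes tested, 3 were called (0.499%, against 0.144% of all tested genes) and 531 were bounded within 1.5-fold (88.4%, against 80.4%). With so few calls among all genes, a list without a call is what the background gives, and the bounds say more than the missing calls. In 7 pathway lists every tested member was bounded within 1.5-fold. These were the nuclear genes of oxidative phosphorylation (43), mitochondrial and peroxisomal beta-oxidation (32), the cytosolic ribosome (30), insulin signalling and glucose use (26), the ER stress response (23), the tricarboxylic acid cycle (19) and fatty acid sensing (15). Averaged over members, each of these lists had a mean log2 CPM above 4 in every WT n3 and WT SFA library. Of all tested genes at 4 to 6, 98.1% were bounded within 1.5-fold, and above 6, 98.2%. Full bounding of these lists was thus near the share at their level. Bounded members could still lean to 1 side: 41 of 43 oxidative phosphorylation genes and 29 of 30 ribosomal genes lay below 0, where 7456 of 15259 tested genes did. Pathway medians ran from -0.174 for MHC class II to 0.11 for cytokines and NF-kB targets.

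No gene was called in the lists of lipolysis, triglyceride synthesis and PPAR targets. Of 25 tested genes of lipolysis and the lipid droplet, 23 were bounded within 1.5-fold. Between the diets, 4 did not overlap (16%, against 9.01% of all tested genes). Adrb3, the beta-3 adrenergic receptor that starts lipolysis, averaged 146 ± 14.3 CPM in WT n3 and 196.4 ± 20.3 CPM in WT SFA, without overlap and not bounded within 1.5-fold (log2 fold change -0.43, interval -0.69 to -0.17, adjusted p = 0.123). Gpihbp1, which holds lipoprotein lipase on the capillary wall, averaged 118.4 ± 8.15 CPM in WT n3 and 98.52 ± 6.86 CPM in WT SFA, also without overlap (0.27, interval 0.12 to 0.41, adjusted p = 0.0862). Fabp4, the fatty acid carrier of adipocytes, had 10530, 11950, 11200 and 11280 CPM in WT n3 libraries, against 10990, 11640, 11530 and 12210 CPM in WT SFA libraries (log2 fold change -0.04, interval -0.19 to 0.10). Lpl, which releases fatty acids from lipoproteins, gave -0.09 (interval -0.21 to 0.02), and the uptake receptor Cd36 gave 0.07 (interval -0.02 to 0.15). Of 26 PPAR targets, none was called and 23 were bounded within 1.5-fold. Angptl4 gave -0.03 (interval -0.18 to 0.12) and Plin2, a coat protein of lipid droplets, gave 0.03 (interval -0.12 to 0.17). Pdk4, a brake on glucose oxidation, gave 0.25 (interval -0.06 to 0.56), with 149.6, 222.9, 195.5 and 234 CPM in WT n3 libraries, against 205, 155.5, 171.9 and 143.7 CPM in WT SFA libraries. Cpt1a, which carries fatty acids into mitochondria, gave 0.15 (interval 0.04 to 0.26, adjusted p = 0.204).

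Cholesterol synthesis (24 genes) had no call, and 23 members were bounded within 1.5-fold, among them Hmgcs1 at -0.07 (interval -0.21 to 0.06). Ffar4, the omega-3 receptor, had 13.24, 11.32, 12.84 and 11.71 CPM in WT n3 libraries, against 13.56, 18.79, 12.66 and 15.21 CPM in WT SFA libraries. The groups overlapped, with a log2 fold change of -0.29 (interval -0.57 to -0.02, adjusted p = 0.312). The beige fat gene Ucp1 was near the limit of detection, with 0.4764 to 1.107 CPM in WT n3 libraries and 0.1585 to 0.7656 CPM in WT SFA libraries. Its interval of -0.39 to 1.71 is too wide to bound it (adjusted p = 0.564).

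**Figure D4:**
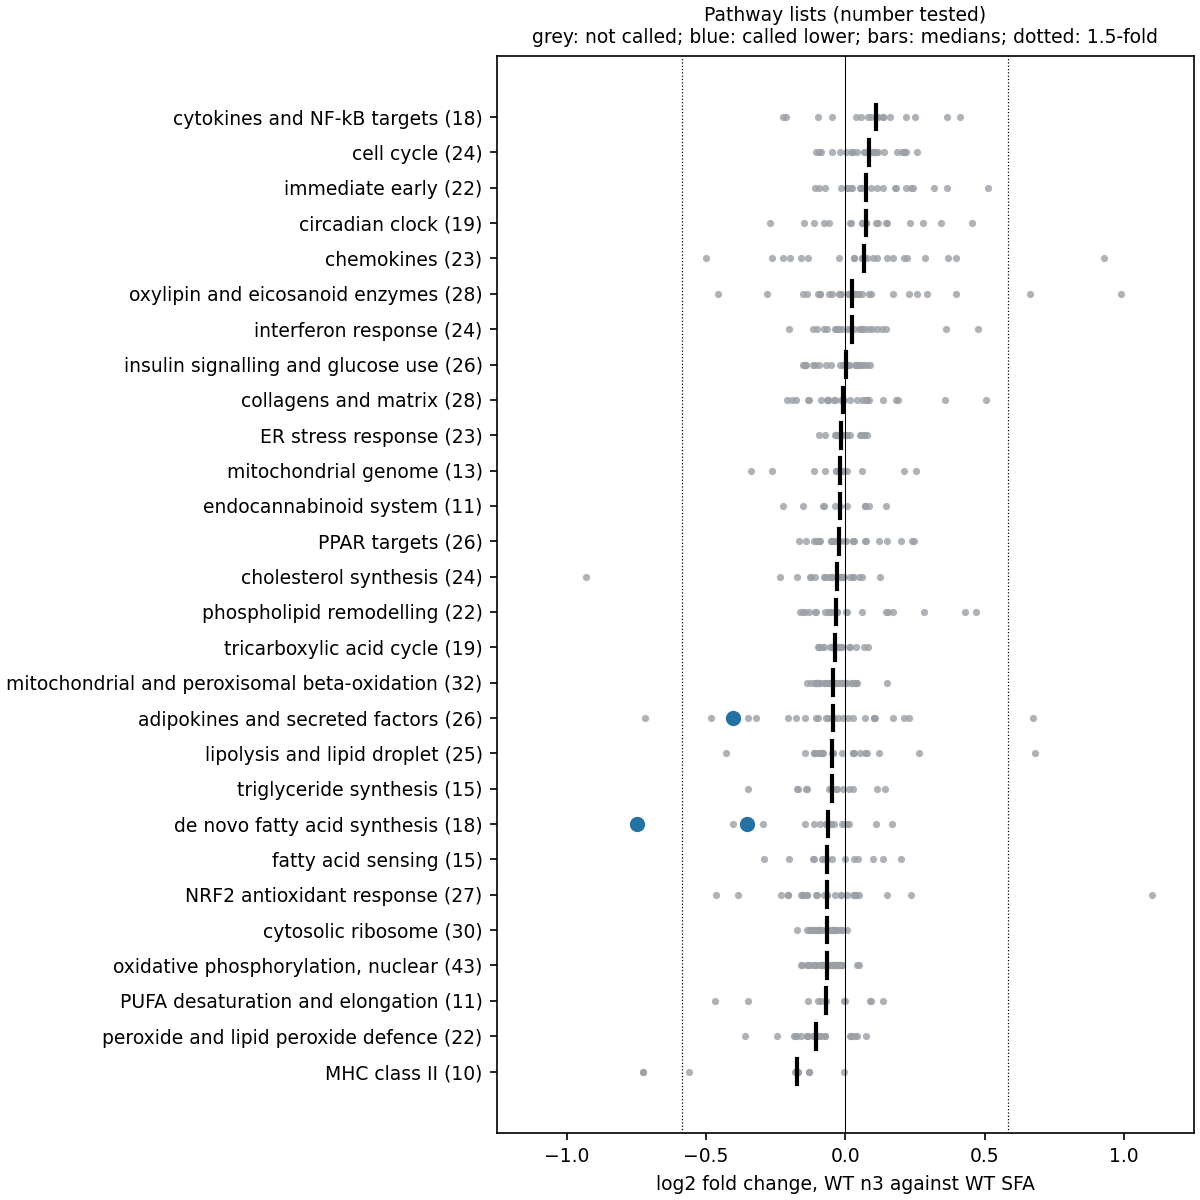
Each row is 1 of 28 pathway lists with its number of tested genes, and each point is a member's log2 fold change of WT n3 against WT SFA on the x axis; black bars are medians and dotted lines mark 1.5-fold. The 3 called members (blue) are Scd1, Scd2 and Orm1, and all medians lie between -0.174 and 0.11.

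Among inflammation markers, as among most genes, calls were missing. No gene was called among the cytokines and NF-kB targets (18), the chemokines (23), the interferon response (24), the macrophage list (15) or the lipid-associated macrophage list (10). In that order, 15, 13, 22, 13 and 8 members were bounded within 1.5-fold. For the chemokines this was 56.5%, against 80.4% of all tested genes. At an unadjusted p below 0.05, 2 cytokines and NF-kB targets and 1 chemokine were higher, against 7.65% of all tested genes, and none was lower. Adgre1, the macrophage antigen F4/80, gave a log2 fold change of 0.11 (interval -0.22 to 0.43), and Ccl2, a monocyte chemokine, gave -0.02 (interval -0.28 to 0.24). Tnf was low, at 0.6989 to 1.098 CPM in WT n3 libraries and 0.5454 to 1.11 CPM in WT SFA libraries, and its interval of -0.36 to 0.55 lay within 1.5-fold. Saa3, an acute-phase protein, gave -0.48 (interval -0.88 to -0.09, adjusted p = 0.246), while the acute-phase gene Orm1 was called lower, as given above. Hp, a more abundant acute-phase gene, gave 0.10 (interval -0.12 to 0.33, adjusted p = 0.698). Of the cytokines and NF-kB targets, 14 lay above 0 and 4 below, and of the chemokines 16 above and 7 below. The highest were Vcam1 at 0.41 (interval 0.20 to 0.62, adjusted p = 0.0733) and Cxcl2 at 0.93 (interval 0.16 to 1.70, adjusted p = 0.255). Neither was bounded within 1.5-fold. All 15 macrophage markers had a log2 fold change above 0 (median 0.134) and all 10 genes of MHC class II one below 0 (median -0.174), where 7801 of 15259 genes lay above 0. MHC class II genes summed to 1284 to 1552 CPM in WT n3 libraries and to 1445 to 1739 CPM in WT SFA libraries. WT SFA replicate 3, high in B cell markers, is among these libraries, and its part in the MHC class II values was not tested.

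No antioxidant gene was called. Of 22 tested genes of peroxide and lipid peroxide defence, 9 were lower at an unadjusted p below 0.05, against 7.02% of all tested genes, none was higher, and 21 were bounded within 1.5-fold. Gpx1, the cytosolic glutathione peroxidase, had 295.5, 361, 300.3 and 318.3 CPM in WT n3 libraries, against 423.9, 400.6, 389 and 425.2 CPM in WT SFA libraries. Its log2 fold change of -0.36 was the lowest of the list, and it was not called. Gpx4, which reduces lipid peroxides in membranes, gave -0.24 (SE 0.07, adjusted p = 0.137). Of 27 NRF2 targets, 8 were lower and 1 was higher at an unadjusted p below 0.05 (33.3% in either direction, against 14.7% of all tested genes). Hmox1, haem oxygenase, gave 0.24 (adjusted p = 0.304) and Nqo1, a quinone reductase, gave -0.21 (adjusted p = 0.389). Of 30 ribosomal protein genes, 11 were lower at an unadjusted p below 0.05 (36.7%, against 7.02% of all tested genes), all of them by less than 1.5-fold.

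Among adipokines, Lep (leptin) gave -0.10 (interval -0.26 to 0.06) and Adipoq gave -0.04 (interval -0.21 to 0.12). Cfd, the serine protease adipsin, had 642.3, 846.6, 613.7 and 611 CPM in WT n3 libraries, against 1291, 1203, 852.9 and 1118 CPM in WT SFA libraries. The groups did not overlap, but 1 library on each side lay close to the other diet, and the log2 fold change of -0.72 (SE 0.22) had an adjusted p of 0.148.

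The same diets were compared in KO mice, with no library in common. There n3 against SFA gave 223 calls (1.46%), with 0.826% of genes higher and 0.636% lower. Of the 22 genes called in WT, 13 had the same sign in KO and 2 were called in the same direction there, Scd1 at -0.39 (SE 0.08, adjusted p = 0.0105) and Scd2 at -0.51 (SE 0.07, adjusted p = 0.000199). Scd1 averaged 76440 ± 4670 CPM in KO n3 and 99830 ± 5530 CPM in KO SFA (SD, n = 4 each), above the levels of WT on either diet given above. The diet difference of Scd1 did not itself differ between the genotypes past the threshold (KO minus WT 0.36, SE 0.11, adjusted p = 0.0954), nor did that of Scd2 (-0.15, SE 0.09, adjusted p = 0.409). Elovl6 was called in KO (-0.47, SE 0.07, adjusted p = 0.000484), and its KO minus WT difference was -0.17 (SE 0.09, adjusted p = 0.35). Fads1 was called in KO as well (-0.34, SE 0.08, adjusted p = 0.0385).

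The diet difference itself differed between KO and WT in 125 genes (0.819%), higher in KO for 0.256% of genes and lower for 0.564%. They included 9 of the 22 genes called in WT, but those 9 were chosen by the WT side of this difference, so nothing is read from their number. Apoc1 averaged 43.12 ± 4.88 CPM in KO n3 and 38.77 ± 6.62 CPM in KO SFA, and its diet difference was 0.15 in KO and -0.64 in WT (KO minus WT 0.79, SE 0.14, adjusted p = 0.018). Sorbs2 averaged 11.46 ± 0.943 CPM in KO n3 and 12.98 ± 1.41 CPM in KO SFA, with a diet difference of -0.18 in KO and 0.40 in WT (KO minus WT -0.58, SE 0.10, adjusted p = 0.0128). Among genes not called in WT, Fads2 was called lower on n3 in KO (-0.56, SE 0.09, adjusted p = 0.00123) and differed from WT by -0.65 (SE 0.12, adjusted p = 0.0279). Ighm, the heavy chain of IgM, averaged 265.9 ± 61.6 CPM in KO n3 and 101.8 ± 11 CPM in KO SFA, against 615.2 ± 53.2 CPM in WT n3 and 582.2 ± 41.8 CPM in WT SFA (KO minus WT 1.31, adjusted p = 0.00305). The count of 125 was 8 without WT SFA replicate 2 and 349 without WT n3 replicate 2.

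**Figure D5:**
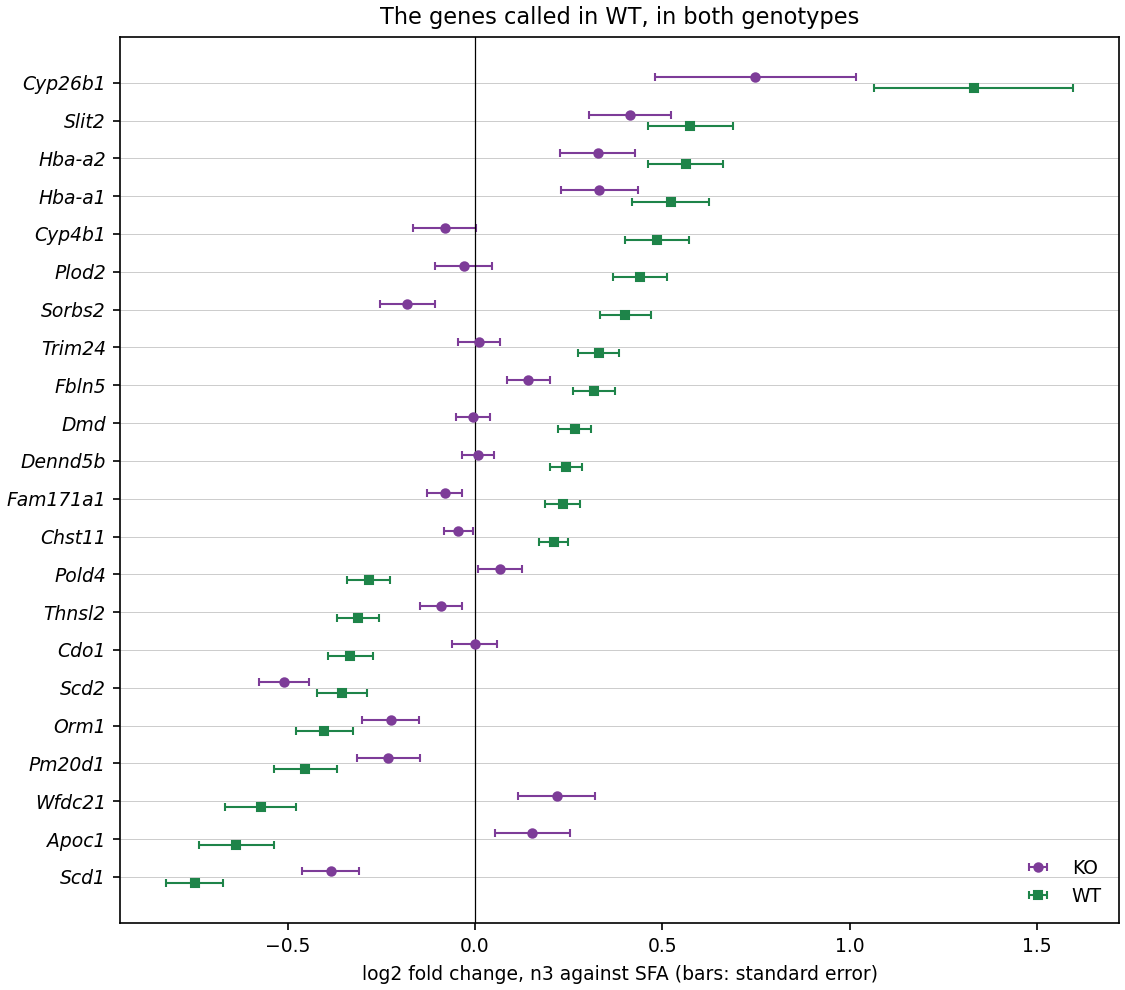
The 22 genes called in WT, with the log2 fold change of n3 against SFA on the x axis in KO (purple circles) and in WT (green squares). Bars are standard errors from the fit over all 24 libraries, with 4 libraries a group. Scd1 and Scd2 are below 0 in both genotypes, while Apoc1 and Wfdc21 are below 0 in WT (-0.64 and -0.57) and above 0 in KO (0.15 and 0.22).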

How the data were processed

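The deposited counts are the authors' estimated counts, 1 value per gene and library; the submitters' processing notes name Salmon, fastp 0.23.2 and the build mm10. They were rounded to whole numbers. The deposited abundance table holds TPM made by the authors; it was used for levels per length and for an alternative test. The sources used here do not give the Salmon version or annotation. Symbols of 34932 genes were matched to GENCODE M21 for positions.

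Per the labels' protocols, poly-A RNA of whole iWAT was extracted with TRIzol and columns; no isolation of adipocytes is described. Low genes were removed with filterByExpr (at least 10 counts, 15 in total). The 15259 kept genes hold 99.98% of counts. All contrasts come from 1 quasi-likelihood fit over 24 libraries (edgeR 4.0.16, R 4.3.3; TMM scaling, robust, 18 residual degrees of freedom), with Benjamini-Hochberg adjustment over all tested genes. "Called" means an adjusted p below 0.05. Fold changes are log2, n3 minus SFA. Standard errors (SE) and 95% intervals come from the fitted information and the moderated dispersion; 43 genes had none. A gene is bounded where its whole interval lies inside the stated fold. Levels are TMM-scaled CPM.

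Named genes are the called genes whose mean log2 CPM reaches 1, 33 panel genes, the called members and the 2 most abundant bounded members of each list, and the 5 smallest p of the KO minus WT difference. The rule for called genes excluded immunoglobulin segments and predicted genes. It was not applied to the KO minus WT difference, from which Ighm comes. A withheld panel gene is not reported here. Further genes (among them Hbb-bs, Alas2, Slc4a1, Pecam1, Gpx1, Adrb3, Gpihbp1, Thrsp, Vcam1 and Cxcl2) were chosen after their values were seen. The members and lists were chosen with earlier results of these data known.

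Alternatives were RLE scaling, an unfiltered table, DESeq2 1.42.0, the compared groups only, a replicate block, limma 3.58.1 on log2 TPM with pseudocounts of 1 and 0.1, marker covariates, and leaving out libraries. The test was tried on simulated data.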

Additional observations from a re-analysis of the deposited data

Results flagged for a closer look

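Several libraries lay far from the other 3 of their group, past Dixon's 95% limit; chance passes it in about 1 in 20 groups, and here 8 of 194 groups did. In WT n3 replicate 2, Cfd was 846.6 CPM, Saa3 18.43 CPM and Thrsp, a regulator of lipogenesis, 198.6 CPM, each high. In WT n3 replicate 4, the T and NK cell markers summed to 38.05 CPM, also high. In WT SFA replicate 3, B cell markers summed to 49.87 CPM and Cr2, a complement receptor of B cells, was 4.873 CPM, both high. In WT SFA replicate 1, Acsl1, an acyl-CoA synthetase, was 3118 CPM, low. In WT SFA replicate 4, Cdo1 was 869.3 CPM, high.

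The difference of n3 from SFA differed between KO and WT, by a contrast of the same fit, in these named genes. On the log2 scale, KO minus WT, it was higher in KO for Ighm (1.31), Wfdc21 (0.79), Apoc1 (0.79) and Pold4 (0.35). It was lower in KO for Mecom (-0.84), Acsl3 (-0.71), Map1a (-0.68), Pecam1 (-0.67), Fads2 (-0.65), Sorbs2 (-0.58), Cyp4b1 (-0.57), Scarb1 (-0.51), Plod2 (-0.47), Fam171a1 (-0.31), Dmd (-0.27) and Chst11 (-0.25). Adjusted p-values ran from 0.00305 to 0.0465.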

How the results depend on the processing

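In 18 alternative settings all 22 called genes kept their sign, and Scd1 was called in each (log2 fold change -0.793 to -0.699, largest adjusted p 0.000639). The 22 calls became 316 with DESeq2 (132 higher, 184 lower, 41.8% higher against 59.1%; 5325 genes had no adjusted p), 209 at an adjusted p below 0.1, and 8 with limma on log2(TPM + 1) without a filter. With the compared groups only, 32 genes were called, 13 higher and 19 lower. Leaving out 1 library gave 1 to 126 calls. The 125 KO minus WT calls became 623 with DESeq2, 56 without a filter, 6 with the compared groups only, 52 without the libraries rich in B cell or muscle markers and 30 with those markers as covariates. On log2 TPM they became 27 (pseudocount 1), 11 (0.1) and 9 (1, no filter), and 8 to 349 when leaving out 1 library. Genes bounded within 1.5-fold became 21827, and within 2-fold 22948, with limma on log2(TPM + 1) without a filter, where 23261 genes were tested. Leaving out 1 library gave 11893 to 12111 and 13709 to 13795. The cause of these moves, the part of the filter and the pseudocount among them, was not tested. Of genes not called, Elovl6, Fads1 and Gpx4 passed with DESeq2 (adjusted p 0.00469, 0.00503 and 0.0375), and Elovl6 also without WT SFA replicate 1 (0.016) or WT n3 replicate 2 (0.048).

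Over all tested genes, the deviations of libraries with the same replicate number correlated little between WT n3 and WT SFA (-0.103, -0.039, -0.031 and 0.055). Low, noisy genes weigh most in these correlations, so they cannot show whether such libraries share a factor that acts on few genes. With a replicate block, 20 genes were called, 17 of them among the 22, and 70 for KO minus WT.

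Low genes were bounded least: below a mean log2 CPM of 0, 8.48% were bounded within 1.5-fold. The part of sequencing depth in this was not tested.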
